A study of Mus musculus with 12 samples.

Results

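Forkhead genes encode transcription factors that share a winged helix DNA-binding domain, and the rule used here took every mouse gene on the array whose symbol is Fox followed by a letter from a to s and a number, except Foxm1. It found 37 of the 18193 genes with a symbol, read by 79 of 45037 probe sets. Of the 37, 36 encode forkhead proteins in 16 lettered subfamilies, and the other one, Foxl2os, is a noncoding RNA beside Foxl2. RNA was measured in the established mouse melanoma line B16-F10, in EGFP-positive cells sorted 24 h after transfection. The 3 groups of 4 arrays each carried chicken FoxD3, chicken FoxD3-VP16, or the empty vector pMES. In FoxD3-VP16 the C-terminal part of FoxD3, with its repression domain, was exchanged for the transactivation domain of VP16, a herpesvirus protein. All plasmids use the chick beta-actin promoter and make EGFP from an IRES, so cells of all groups were transfected, made EGFP and passed the sorter. The cells are 1 line, and nothing in the labels tells whether the replicates of a group were cultured apart, so the p-values rest on the spread between these arrays alone, which may be technical.

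Forkhead proteins recognise closely related sites around the core TGTTTAC, and several members can bind the same enhancers. Some, such as the FoxA proteins, open closed chromatin, others, such as the FoxP and FoxK proteins, mainly repress, and the FoxO proteins are activators kept out of the nucleus by Akt. FoxD3 is a forkhead repressor of premigratory neural crest cells, from which melanocytes descend, and melanoma arises from melanocytes. The study's question, which genes FoxD3 regulates in melanoma cells and what the exchange of its repression domain does, is put here to the other members of its own family.

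Levels are given as log2(intensity + 16) after normalization, and a gene was tested where its mean lay above a brightness limit of 5.98, below which lie the dimmest 40% of genes. Of the 37 forkhead genes, 17 lay above the limit and 20 below it, and the tests cover only those 17. They are Foxa1, Foxc1, Foxd2, Foxf1, Foxj2, Foxj3, Foxk1, Foxk2, Foxl2, Foxn2, Foxn3, Foxo1, Foxo3, Foxo4, Foxp1, Foxp2 and Foxp4. Mouse Foxd3 itself was dim, at 4.29 to 5.26 over the 12 arrays, and its log2 change was 0.11 with FoxD3 and -0.09 with FoxD3-VP16, both against empty vector. The transgenes are chicken sequences, so this mouse probe set does not check the labels.

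**Figure D1:**
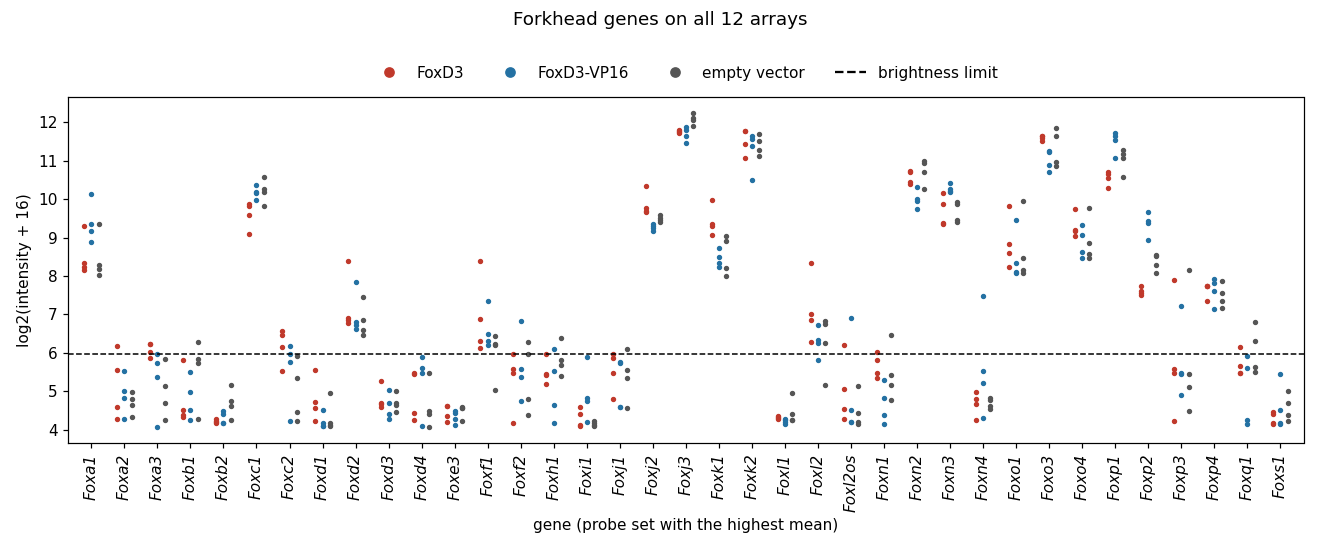
Level of each of the 37 forkhead genes on all 12 arrays, as log2(intensity + 16) after normalization (vertical axis), with 1 column per gene and FoxD3, FoxD3-VP16 and empty vector arrays side by side. Points are arrays and the dashed line is the brightness limit of 5.98. The 17 tested genes have their mean over the arrays above it, and the 20 others below it.

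A gene is called changed at an adjusted p under 0.05 (limma over all 12 arrays, Benjamini-Hochberg over 10916 genes). The arrays carry replicate numbers 1 to 4 in each group, and arrays of the same number deviated together (correlation 0.37 to 0.67 in 12 pairs). Arrays numbered 3 and 4 of different groups did so too (0.37 to 0.54 in 6 pairs), so the correlations do not tell these 2 numbers apart. A fit with the replicate number as a block stands beside the fit without it for each forkhead gene whose call it changes. Pooled over all tested genes, the number took 50.1% of the variance and the vector 30.8%. Taken gene by gene, the median share among the 17 forkhead genes was 43.7% for the vector and 24.8% for the number. The vector took the larger share in 11 of them. A pooled share and a median of single genes are unlike measures. No count over all tested genes is given beside the 11, so the family is not compared with them. The 3 arrays numbered 1 stood apart, with hybridization controls at 14.3 to 14.5 against 11.5 to 12.9 on the others, 18S probe sets at 12.8 to 13.1 against 9.31 to 10.1, and a Gapdh 3' minus 5' difference of 0.56 to 0.77 against -0.25 to 0.04. Among the others, arrays numbered 2 had controls at 12.7 to 12.9 and Gapdh at -0.06 to 0.04. Numbers 3 and 4 had 11.5 to 11.7 and -0.25 to -0.11. Each group holds 1 array of every number. Levels come from bulk RNA, in which fewer cells with a transcript and less of it per cell cannot be told apart.

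With FoxD3 against empty vector, Foxp2 fell and none of the 17 tested forkhead genes rose. Over all tested genes 1.12% fell and 2.89% rose. At an unadjusted p under 0.05 there were 6 forkhead genes. No share of all tested genes at an unadjusted p is given, here or below. Such counts therefore have no background to be read against and show no excess. With the block, Foxk1 rose, and Foxc1, Foxj3, Foxp1 and Foxp2 fell, where 11.8% of all tested genes rose and 9.21% fell. The 4 arrays of one group lay wholly above or below the 4 of the other for 4 forkhead genes, Foxk1, Foxj2, Foxj3 and Foxp2, and for 11.5% of all tested genes. The median log2 change of the 17 was 0.17, with 12 positive and 5 negative, and the median of all tested genes was -0.0041. Their median size regardless of sign was 0.37, beside 0.23 for all tested genes.

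With FoxD3-VP16 against empty vector, Foxp2 rose, and none of the other 16 was called without the block. Over all tested genes 0.522% rose and 0.0733% fell. At an unadjusted p under 0.05 there were 6 forkhead genes, again with no share of all tested genes to set beside them. With the block, Foxa1, Foxn3, Foxp1 and Foxp2 rose and Foxj3 and Foxn2 fell, where 5.73% of all tested genes rose and 5.41% fell. Groups did not overlap for 4 forkhead genes, Foxj2, Foxj3, Foxn3 and Foxp2, and for 5.71% of all tested genes. The median change was -0.05, with 8 positive and 9 negative, beside -0.02 for all tested genes, and the median size was 0.21 beside 0.19. Both comparisons with the empty vector share its 4 arrays.

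Between FoxD3-VP16 and FoxD3, Foxp1 and Foxp2 were higher with FoxD3-VP16, and Foxj2 and Foxk1 were lower. Over all tested genes 4.44% were called higher and 5.13% lower. At an unadjusted p under 0.05 there were 9 forkhead genes, again with no share of all tested genes to set beside them. With the block 5 were called higher, Foxa1, Foxc1, Foxn3, Foxp1 and Foxp2, and 4 lower, Foxj2, Foxk1, Foxn2 and Foxo3, where 14.6% of all tested genes were called higher and 17.5% lower. Groups did not overlap for 8 forkhead genes, Foxc1, Foxj2, Foxk1, Foxn2, Foxn3, Foxo3, Foxp1 and Foxp2, and for 18.2% of all tested genes. The median change was -0.24, with 5 positive and 12 negative, beside -0.03 for all tested genes, and the median size was 0.57 beside 0.27.

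**Figure D2:**
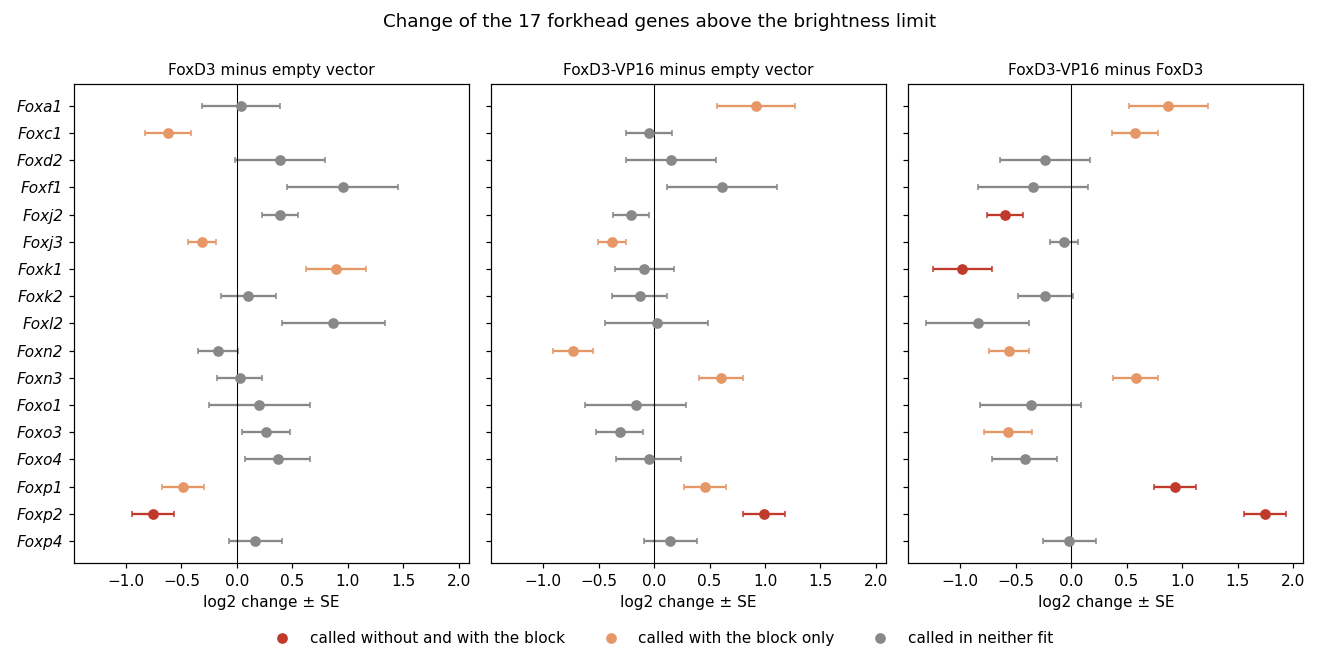
Log2 change (horizontal axis, log2(intensity + 16) scale) of the 17 tested forkhead genes (rows) for FoxD3 minus empty vector, FoxD3-VP16 minus empty vector and FoxD3-VP16 minus FoxD3, with the standard error of the fit without the block. Red marks a call in both fits, orange a call with the block only, grey neither. Foxp2 lies at -0.75, 0.99 and 1.74 in the 3 panels, red in each of them.

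Foxp2 and Foxp1 encode FoxP proteins, which bind DNA as dimers joined through a leucine zipper and recruit corepressors. FOXP2 is known in humans for its part in speech, and Foxp1 acts in B cell, heart and neuronal development. Foxp2 read 7.57, 7.62, 7.51 and 7.73 on FoxD3 arrays 1 to 4, 9.65, 8.95, 9.37 and 9.42 on FoxD3-VP16 arrays, and 8.29, 8.08, 8.53 and 8.54 on empty vector arrays. The 3 groups did not overlap, with all FoxD3 arrays lowest and all FoxD3-VP16 arrays highest. Means were 7.60 ± 0.09 with FoxD3, 9.35 ± 0.29 with FoxD3-VP16 and 8.36 ± 0.22 with empty vector (SD, n = 4 each). Foxp2 was thus 1.69-fold lower with FoxD3 than with empty vector (log2 change -0.75, SE 0.19, adjusted p = 0.0419). With FoxD3-VP16 it was 1.99-fold higher than with empty vector (0.99, SE 0.19, adjusted p = 0.0349). Between FoxD3-VP16 and FoxD3 the difference was 3.35-fold (1.74, SE 0.19, adjusted p = 0.00015). The vector took 93.4% of the variance of Foxp2 and the replicate number 3.27%.

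The difference between FoxD3-VP16 and FoxD3 was called with any 1 array left out, at a log2 change of 1.66 to 1.87. The 2 changes of Foxp2 against empty vector kept their direction but lie close to the threshold. The fall with FoxD3 was not called without empty vector 1, 3 or 4, any FoxD3 array, or FoxD3-VP16 3 or 4 (adjusted p = 0.0585 to 0.131 in these 9 cases). The rise with FoxD3-VP16 was not called without any 1 of the empty vector arrays, FoxD3 2, 3 or 4, or FoxD3-VP16 1, 3 or 4 (adjusted p = 0.0544 to 0.161 in these 10 cases). With the mean of all 6 Foxp2 probe sets the change with FoxD3 was -0.42 (adjusted p = 0.212, and 0.106 with the block), and that with FoxD3-VP16 was 0.74 (adjusted p = 0.0704, and 0.0209 with the block). Without all 3 arrays numbered 1, the changes were -0.81 with FoxD3 (adjusted p = 0.0323) and 0.88 with FoxD3-VP16 (adjusted p = 0.0467). Neither change was called with no brightness limit (adjusted p = 0.101 with FoxD3 and 0.0904 with FoxD3-VP16). With only the 2 groups compared the adjusted p values were 0.0743 and 0.124. In the unblocked limma fit over all probe sets, those of the probe set taken for Foxp2 were 0.143 and 0.113.

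**Figure D3:**
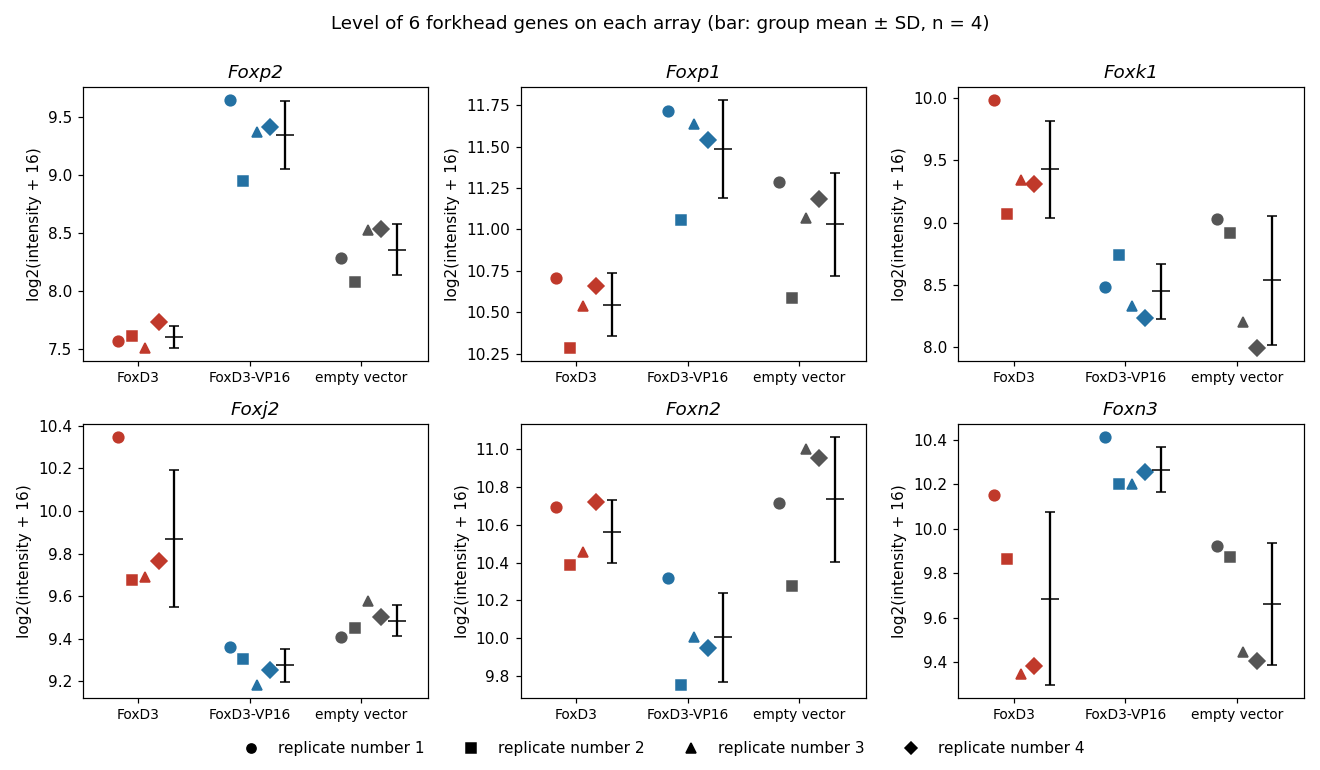
Level of Foxp2, Foxp1, Foxk1, Foxj2, Foxn2 and Foxn3 on each array (vertical axes, log2(intensity + 16), 1 scale per gene) with FoxD3, FoxD3-VP16 and empty vector. Symbols mark replicate numbers 1 to 4, and bars the group mean ± SD (n = 4). The 3 groups of Foxp2 are apart from each other, and for Foxp1 the array numbered 2 is the lowest of each group.

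Foxp1 read 10.71, 10.28, 10.54 and 10.66 on FoxD3 arrays 1 to 4, 11.72, 11.06, 11.64 and 11.54 on FoxD3-VP16 arrays, and 11.29, 10.58, 11.07 and 11.18 on empty vector arrays. All FoxD3-VP16 arrays lay above all FoxD3 arrays, while the empty vector arrays overlapped with both. Within each replicate number, the FoxD3 array was the lowest of the 3 and the FoxD3-VP16 array the highest. Foxp1 was 1.92-fold higher with FoxD3-VP16 than with FoxD3 (log2 change 0.94, SE 0.19, adjusted p = 0.00719), and this was called with any 1 array left out. Against empty vector the change was -0.48 with FoxD3 (adjusted p = 0.21, and 0.00188 with the block). It was 0.46 with FoxD3-VP16 (adjusted p = 0.405, and 0.00654 with the block).

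The array holds 8 probe sets for Foxp1 and 6 for Foxp2, which read the same RNA and are not replicates. All 8 of Foxp1 were lower with FoxD3 than with empty vector, by log2 changes of -0.72 to -0.26, and all 8 were higher with FoxD3-VP16, by 0.37 to 0.60. For Foxp2, the 3 brightest probe sets gave -0.82 to -0.71 with FoxD3 and 0.98 to 1.00 with FoxD3-VP16. The other 3 are dimmer, and they gave -0.46, 0.08 and 0.15 with FoxD3 and 0.52, 0.65 and 0.32 with FoxD3-VP16. The third tested member of the subfamily, Foxp4, was not called in any comparison. Its log2 change was 0.17 with FoxD3 against empty vector (95% interval -0.35 to 0.68) and 0.15 with FoxD3-VP16 (-0.37 to 0.66). A second Foxp4 probe set, with a mean of 7.34, gave 0.56 with FoxD3, all FoxD3 arrays lying above all empty vector arrays. It was not called in either fit, and gave 0.18 with FoxD3-VP16. The third gave -0.02 and 0.21.

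**Figure D4:**
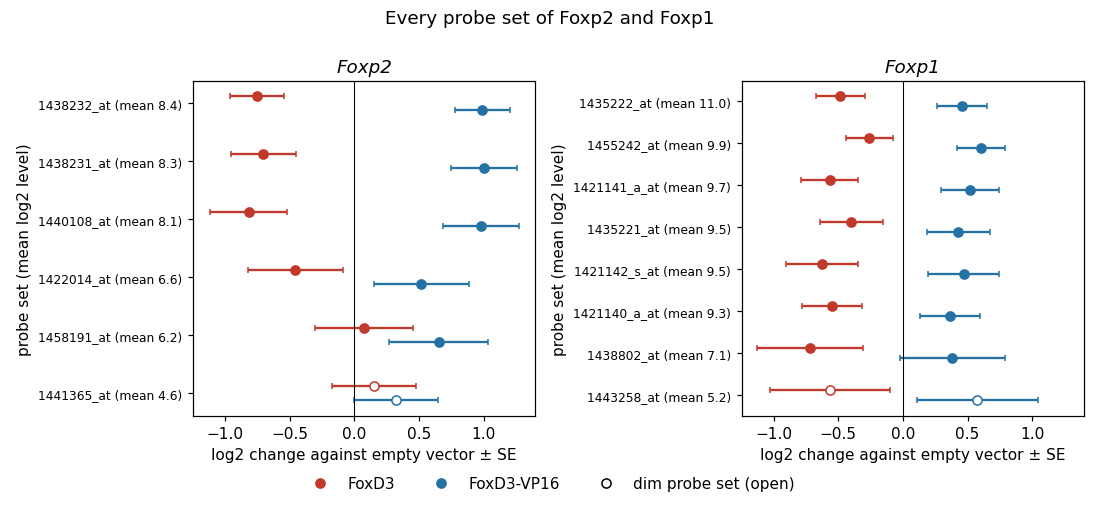
Log2 change against empty vector (horizontal axis, ± SE) of each probe set of Foxp2 and Foxp1 (rows, with mean level) for FoxD3 (red) and FoxD3-VP16 (blue). Open circles are probe sets below the brightness limit. All 8 probe sets of Foxp1 have FoxD3 left of 0 and FoxD3-VP16 right of it, and so have the 4 brightest of Foxp2.

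The promoters of Foxp1 are shown because its level moved in opposite directions with the 2 forms of FoxD3 in the fit with the block. RefSeq (GRCm38.p6) gives windows from 250 bases before to 50 after a start. Both strands were searched for the forkhead motifs TGTTTAC, found in 3.65% of 32851 mouse promoter windows, and TGTTTAT, found in 4.6%, with 7.97% holding either one. Of 3 Foxp1 windows 2 hold a match, printed here 5' to 3' on the gene's strand with the match in capitals, and the third, at chr6:99028249-99028548, holds none.
Foxp1, chr6:99266466-99266765, minus strand: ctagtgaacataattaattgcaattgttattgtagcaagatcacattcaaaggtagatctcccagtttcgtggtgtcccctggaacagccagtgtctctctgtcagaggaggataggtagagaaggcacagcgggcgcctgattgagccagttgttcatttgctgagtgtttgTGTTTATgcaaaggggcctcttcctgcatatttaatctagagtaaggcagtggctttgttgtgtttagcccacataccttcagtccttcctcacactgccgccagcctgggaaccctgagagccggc
Foxp1, chr6:99520944-99521243, minus strand: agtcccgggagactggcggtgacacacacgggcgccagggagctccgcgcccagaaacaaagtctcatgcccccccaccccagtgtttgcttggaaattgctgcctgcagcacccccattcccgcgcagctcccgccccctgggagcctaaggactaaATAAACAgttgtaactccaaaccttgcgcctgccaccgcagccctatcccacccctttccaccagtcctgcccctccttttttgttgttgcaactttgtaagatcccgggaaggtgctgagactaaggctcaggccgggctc
In the first window TGTTTAT begins at position -77 from the start, and in the other window its reverse complement ATAAACA begins at position -92. A match is a description of the letters and not a binding site. Over the tested forkhead genes, 12 of 17 have such a window, and 3 of their 14 windows hold a match, the other being that of Foxa1. Foxc1 and Foxn3, also called higher with FoxD3-VP16 than with FoxD3 with the block, have windows without a match. Foxp2 and Foxk1 have no window. A link between a match and the direction of change was not tested.

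Foxk1 and Foxk2 encode the FoxK proteins, which repress autophagy genes and bind the deubiquitinase Bap1 and Sin3 corepressors. Foxk1 read 9.99, 9.07, 9.34 and 9.31 on FoxD3 arrays 1 to 4, 8.48, 8.74, 8.33 and 8.23 on FoxD3-VP16 arrays, and 9.03, 8.92, 8.20 and 7.99 on empty vector arrays. All FoxD3 arrays lay above those of the other groups, whose values overlapped. Foxk1 was 1.97-fold lower with FoxD3-VP16 than with FoxD3 (log2 change -0.98, SE 0.27, adjusted p = 0.036). Against empty vector it was 1.86-fold higher with FoxD3 (0.89, SE 0.27, adjusted p = 0.0867, and 0.00626 with the block). With FoxD3-VP16 the change was -0.09 (95% interval -0.66 to 0.49). The call between the transgenes was lost without FoxD3 1, 3 or 4 or FoxD3-VP16 1, 3 or 4 (adjusted p = 0.0538 to 0.102 in these 6 cases). With no brightness limit it was lost as well (adjusted p = 0.0546), as it was in the unblocked limma fit over all probe sets (0.0715). It was also lost with the mean of the 3 Foxk1 probe sets, of which 1 is dim (-0.46, adjusted p = 0.208, and 0.136 with the block). With that mean the change of FoxD3 against empty vector was 0.45 and was not called with the block either (adjusted p = 0.179). The other probe set above the limit gave 0.62 with FoxD3 against empty vector and -0.69 between the transgenes, not called in either fit. The dim one gave -0.18 and 0.30.

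Foxk2, with 5 probe sets, was not called in any comparison. Its log2 change was 0.10 with FoxD3 (95% interval -0.43 to 0.64) and -0.13 with FoxD3-VP16 (-0.67 to 0.41), each against empty vector. FoxD3-VP16 minus FoxD3 came to -0.23 (-0.77 to 0.30).

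Foxj2 and Foxj3 encode closely related activators, and Foxj3 is known for a part in muscle regeneration and sperm formation in mice. Foxj2 read 10.35, 9.68, 9.69 and 9.77 on FoxD3 arrays 1 to 4, 9.36, 9.31, 9.18 and 9.25 on FoxD3-VP16 arrays, and 9.41, 9.45, 9.58 and 9.50 on empty vector arrays. The 3 groups did not overlap, with FoxD3 highest and FoxD3-VP16 lowest, and FoxD3 array 1 stood above its group. Foxj2 was 1.51-fold lower with FoxD3-VP16 than with FoxD3 (log2 change -0.59, SE 0.16, adjusted p = 0.038). Against empty vector the change was 0.39 with FoxD3 (adjusted p = 0.259) and -0.21 with FoxD3-VP16 (adjusted p = 0.781), neither called in either fit.

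A second probe set of Foxj2, with a mean of 6.14 near the brightness limit, had changes of the opposite sign and was not called. They were -0.89 with FoxD3 and 0.0048 with FoxD3-VP16 against empty vector, and 0.90 between the transgenes. With the mean of both probe sets the difference between FoxD3-VP16 and FoxD3 was 0.15 (adjusted p = 0.833). The call was lost without empty vector 3 or 4, FoxD3 1, 3 or 4, or FoxD3-VP16 2, 3 or 4 (adjusted p = 0.0507 to 0.107 in these 8 cases), and without FoxD3 1 the change was -0.44. The call was also lost with no brightness limit (adjusted p = 0.0671) and with only the 2 groups compared (0.0669). In the unblocked limma fit over all probe sets the adjusted p was 0.102. The promoter window of Foxj2 is shown beside those of Foxp1 because the probe set taken for it was lower with FoxD3-VP16 than with FoxD3, where Foxp1 was higher, and it holds no match to either motif.
Foxj2, chr6:122819934-122820233, plus strand: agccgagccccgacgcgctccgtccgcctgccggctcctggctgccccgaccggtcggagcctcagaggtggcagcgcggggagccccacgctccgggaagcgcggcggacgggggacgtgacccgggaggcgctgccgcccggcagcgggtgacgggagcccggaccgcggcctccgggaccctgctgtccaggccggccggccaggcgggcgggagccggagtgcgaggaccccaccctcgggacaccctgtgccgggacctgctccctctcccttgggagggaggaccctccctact

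In the fit with the block Foxj3 was called lower with both transgenes, but not under every setting. It read 11.74, 11.80, 11.73 and 11.78 on FoxD3 arrays 1 to 4, 11.89, 11.79, 11.46 and 11.65 on FoxD3-VP16 arrays, and 12.05, 11.90, 12.12 and 12.25 on empty vector arrays. All 8 transgene arrays lay below the 4 empty vector arrays. The change was -0.32 with FoxD3 (adjusted p = 0.216, and 0.0364 with the block) and -0.38 with FoxD3-VP16 (adjusted p = 0.27, and 0.0265 with the block). The blocked calls were lost with the mean of all probe sets (adjusted p = 0.465 with FoxD3 and 0.195 with FoxD3-VP16) and in the blocked fit over all probe sets (0.0746 and 0.0522). The one with FoxD3 was also lost without the 3 arrays numbered 1 (adjusted p = 0.072). FoxD3-VP16 minus FoxD3 was -0.07 (95% interval -0.34 to 0.20). The other 2 probe sets of Foxj3, of which 1 is dim, gave -0.24 and 0.03 with FoxD3 and 0.17 and -0.79 with FoxD3-VP16.

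Foxn2 and Foxn3 belong to the FoxN subfamily, and Foxn3 is a repressor first described in humans as a checkpoint suppressor. Foxn2 read 10.69, 10.39, 10.46 and 10.72 on FoxD3 arrays 1 to 4, 10.32, 9.75, 10.00 and 9.95 on FoxD3-VP16 arrays, and 10.71, 10.28, 11.00 and 10.95 on empty vector arrays. All FoxD3-VP16 arrays lay below all FoxD3 arrays, and within each number below the empty vector array. Foxn2 was 1.66-fold lower with FoxD3-VP16 than with empty vector (log2 change -0.73, SE 0.18, adjusted p = 0.126, and 0.00347 with the block). FoxD3-VP16 minus FoxD3 was -0.56 (adjusted p = 0.076, and 0.00385 with the block). With FoxD3 the change against empty vector was -0.17 (95% interval -0.57 to 0.23).

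Foxn3 read 10.15, 9.86, 9.35 and 9.38 on FoxD3 arrays 1 to 4, 10.41, 10.20, 10.20 and 10.25 on FoxD3-VP16 arrays, and 9.92, 9.87, 9.45 and 9.41 on empty vector arrays. The FoxD3-VP16 arrays lay above all 8 others, and the FoxD3 and empty vector arrays overlapped. Foxn3 was 1.52-fold higher with FoxD3-VP16 than with empty vector (log2 change 0.60, SE 0.20, adjusted p = 0.282, and 0.0106 with the block). It was 1.49-fold higher than with FoxD3 (0.58, SE 0.20, adjusted p = 0.0928, and 0.00363 with the block). FoxD3 minus empty vector was 0.02 (95% interval -0.41 to 0.46). Of the 4 probe sets of Foxn3, all were higher with FoxD3-VP16 than with empty vector, by 0.12 to 0.60, and against FoxD3 they gave -0.14 to 0.58. With the mean of the 4, the blocked calls were lost in both comparisons (0.37, adjusted p = 0.324 against empty vector, and 0.29, adjusted p = 0.354 against FoxD3).

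Foxa1 encodes a pioneer factor that opens chromatin in endoderm, breast and prostate. It read 9.30, 8.16, 8.33 and 8.23 on FoxD3 arrays 1 to 4, 10.12, 9.16, 8.89 and 9.36 on FoxD3-VP16 arrays, and 9.35, 8.04, 8.19 and 8.28 on empty vector arrays. The array numbered 1 was the highest of each group, and within each number the FoxD3-VP16 array lay above the other 2. Foxa1 was 1.89-fold higher with FoxD3-VP16 than with empty vector (log2 change 0.92, SE 0.35, adjusted p = 0.358, and 0.0017 with the block). It was 1.84-fold higher than with FoxD3 (0.88, SE 0.35, adjusted p = 0.149, and 0.00041 with the block). Without the 3 arrays numbered 1 and without the block, these were 0.99 (adjusted p = 0.0164) and 0.92 (adjusted p = 0.00456). FoxD3 minus empty vector was 0.04 (95% interval -0.72 to 0.80). Foxa1 has 1 probe set and 1 promoter window, shown because it holds the full core motif on its other strand, as GTAAACA beginning at position -141.
Foxa1, chr12:57546062-57546361, minus strand: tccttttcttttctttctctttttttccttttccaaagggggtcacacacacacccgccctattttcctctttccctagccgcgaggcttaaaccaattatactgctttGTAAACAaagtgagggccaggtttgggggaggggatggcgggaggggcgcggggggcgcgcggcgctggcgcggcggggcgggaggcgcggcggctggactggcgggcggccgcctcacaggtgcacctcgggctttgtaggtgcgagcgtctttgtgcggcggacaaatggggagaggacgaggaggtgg

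Foxc1 acts in the neural crest-derived tissue of the eye and in blood vessels. It read 9.81, 9.09, 9.87 and 9.59 on FoxD3 arrays 1 to 4, 9.96, 10.15, 10.19 and 10.36 on FoxD3-VP16 arrays, and 10.18, 9.81, 10.27 and 10.59 on empty vector arrays. Each FoxD3 array lay below the other 2 arrays of its number, and the FoxD3-VP16 and empty vector arrays overlapped. The change with FoxD3 against empty vector was -0.62 (SE 0.20, adjusted p = 0.122, and 0.00901 with the block). FoxD3-VP16 minus FoxD3 was 0.58 (SE 0.20, adjusted p = 0.102, and 0.00859 with the block). Against empty vector FoxD3-VP16 gave -0.05 (95% interval -0.49 to 0.40). The second probe set of Foxc1 gave -0.84 with FoxD3 and -0.07 with FoxD3-VP16 against empty vector.

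The genome places several forkhead genes side by side, with 0 protein-coding genes between Foxq1, Foxf2 and Foxc1, between Foxc2 and Foxl1 and between Foxd2 and Foxe3, and 1 between Foxf1 and Foxc2. In each of these clusters 1 gene passed the brightness limit, Foxc1, Foxf1 or Foxd2, and the neighbours named here were dim.

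The FoxO proteins Foxo1, Foxo3 and Foxo4 drive stress resistance, cell cycle arrest and autophagy when Akt signalling is low. None of the 3 was called without the block. Foxo3 read 11.58, 11.50, 11.65 and 11.63 on FoxD3 arrays 1 to 4, 11.24, 11.26, 10.88 and 10.70 on FoxD3-VP16 arrays, and 10.87, 10.97, 11.63 and 11.85 on empty vector arrays. All FoxD3-VP16 arrays lay below all FoxD3 arrays, and the empty vector arrays spread over both. FoxD3-VP16 minus FoxD3 was -0.57 (SE 0.21, adjusted p = 0.12, and 0.0381 with the block), or -0.32 with the mean of its 3 probe sets (adjusted p = 0.404 with the block), while the changes against empty vector were 0.26 with FoxD3 and -0.31 with FoxD3-VP16. Between the transgenes, its other probe set above the limit gave -0.55 and the dim one 0.17. In the limma fit over all probe sets the former had an adjusted p of 0.145, and 0.0283 with the block. The probe set taken for Foxo3 had 0.221 in that fit, and 0.0593 with the block, so its blocked call was lost there. Foxo1 read 9.82, 8.23, 8.59 and 8.83 on FoxD3 arrays, 9.46, 8.35, 8.09 and 8.11 on FoxD3-VP16 arrays, and 9.94, 8.08, 8.16 and 8.47 on empty vector arrays. The array numbered 1 was the highest of each group, and the replicate number took 89.0% of the variance of Foxo1 and the vector 5.2%. Its change was 0.20 with FoxD3 (95% interval -0.78 to 1.19) and -0.16 with FoxD3-VP16 (-1.15 to 0.82) against empty vector. Without the 3 arrays numbered 1 these were 0.49 (adjusted p = 0.174, and 0.0352 with the block) and 0.25 (adjusted p = 0.528, and 0.257 with the block). Another 2 probe sets of Foxo1 above the limit gave 0.37 and 0.64 with FoxD3, higher in 4 of 4 pairs of the same number and not called, and the dim one gave -0.56. Foxo4 gave 0.37 with FoxD3 (-0.26 to 1.00) and -0.05 with FoxD3-VP16 (-0.68 to 0.58).

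FoxO activity is set after transcription, so genes that control FoxO proteins and genes known as their targets are described beside them, from lists chosen with earlier results of these data known. Of 32 tested control genes, 0 rose and 2 fell with FoxD3 against empty vector, and with the block 2 rose and 5 fell. Over all tested genes 2.89% rose and 1.12% fell, and with the block 11.8% and 9.21%. Those called without the block were the kinase Sgk3, which phosphorylates FoxO proteins (log2 change -0.97, adjusted p = 0.00483), and Rictor, a subunit of the complex that activates Akt (-0.83, adjusted p = 0.0242). With FoxD3-VP16 against empty vector, limma called 0 of the 32, with 4 at an unadjusted p under 0.05 and 3 higher and 1 lower with the block, where 5.73% and 5.41% of all tested genes were. Between FoxD3-VP16 and FoxD3, 4 were higher and 1 lower, and with the block 5 and 2, beside 4.44% and 5.13%, and with the block 14.6% and 17.5%, of all tested genes. The higher ones were Sgk1, another such kinase (2.77, adjusted p = 0.0132), Sgk3 (1.45, adjusted p = 0.000192), Rictor (0.69, adjusted p = 0.0336) and Skp2, a ubiquitin ligase subunit (0.49, adjusted p = 0.0473). The deacetylase Sirt1 was lower (-1.09, adjusted p = 0.016). The median change over the list was -0.03, -0.05 and -0.02 in the 3 comparisons, beside -0.0041, -0.02 and -0.03 over all tested genes.

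Of 29 tested FoxO target genes, 1 rose and 2 fell with FoxD3 against empty vector, and with the block 7 rose and 8 fell, where 2.89% and 1.12% of all tested genes did, and with the block 11.8% and 9.21%. The cyclin gene Ccnd1, which FoxO proteins repress, rose (1.86, adjusted p = 0.00189), and the transcription cofactor gene Cited2 (-1.33, adjusted p = 0.00099) and Rictor, which is in both lists, fell. With FoxD3-VP16 against empty vector 3 rose and none fell, and with the block 9 rose and 3 fell, where 0.522% and 0.0733% of all tested genes did, and with the block 5.73% and 5.41%. Those called without the block were Sesn1, a stress-induced inhibitor of mTORC1 signalling (1.43, adjusted p = 0.000709), Pik3ip1, an inhibitor of PI3 kinase (1.25, adjusted p = 0.0288), and Cited2 (0.85, adjusted p = 0.0478). Between FoxD3-VP16 and FoxD3, 9 were higher and 2 lower, and with the block 10 were higher and 6 lower. Over all tested genes the shares were 4.44% and 5.13%, and with the block 14.6% and 17.5%. The 4 largest rises were Cited2 (2.18), Sesn1 (1.95), Pik3ip1 (1.81) and Sesn3 (1.57), and the falls were Ccnd1 (-2.68) and the cell cycle inhibitor Cdkn1a (-1.29). Ccnd1 and Cdkn1a act on the cell cycle in opposite ways, and both were lower with FoxD3-VP16 than with FoxD3. The median change of the list was -0.01, 0.09 and 0.05 in the 3 comparisons, and its median size 0.48, 0.38 and 0.65, beside 0.23, 0.19 and 0.27 over all tested genes.

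A list of 20 proteins that bind forkhead factors or act with them, all tested, held no call in either comparison with the empty vector. With FoxD3 limma called 0, with 2 at an unadjusted p under 0.05 and 5 higher and 2 lower with the block, where 11.8% and 9.21% of all tested genes were. With FoxD3-VP16 it called 0, with 0 at an unadjusted p under 0.05 and 3 higher and 1 lower with the block, where 5.73% and 5.41% were. Between FoxD3-VP16 and FoxD3, Ogt, the enzyme that attaches N-acetylglucosamine to nuclear proteins, was higher (0.74, adjusted p = 0.0428). The NuRD complex genes Gatad2b (-0.58, adjusted p = 0.0432) and Mta1 (-0.56, adjusted p = 0.0413) were lower. Over all tested genes 4.44% were called higher and 5.13% lower. With the block 4 of the list were higher and 7 lower, where 14.6% and 17.5% of all tested genes were. The median change of the list was 0.05, -0.01 and -0.03 in the 3 comparisons.

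The remaining tested genes, Foxd2, Foxf1 and Foxl2, lie near the brightness limit and none was called in either fit. Foxf1, a regulator of mesenchyme, read 8.40, 6.14, 6.31 and 6.89 on FoxD3 arrays 1 to 4, 7.36, 6.31, 6.20 and 6.49 on FoxD3-VP16 arrays, and 6.43, 5.04, 6.23 and 6.22 on empty vector arrays. FoxD3 array 1 was the highest of all and empty vector array 2 the lowest. Its change was 0.95 with FoxD3 against empty vector (95% interval -0.12 to 2.02), higher in 4 of 4 pairs of arrays of the same number (adjusted p = 0.382, and 0.0543 with the block). Its second probe set, which is dim, gave -0.36, and the mean of both gave 0.30. Foxl2, the ovarian regulator, gave 0.87 with FoxD3 (-0.14 to 1.87) and 0.02 with FoxD3-VP16 (-0.98 to 1.03), and without the 3 arrays numbered 1 these were 0.11 and -0.36. Foxd2, a close relative of Foxd3, gave 0.39 with FoxD3 (-0.49 to 1.27) and 0.15 with FoxD3-VP16 (-0.73 to 1.03), and without FoxD3 array 1 the first of these was 0.00050.

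The 20 dim genes are Foxa2, Foxa3, Foxb1, Foxb2, Foxc2, Foxd1, Foxd3, Foxd4, Foxe3, Foxf2, Foxh1, Foxi1, Foxj1, Foxl1, Foxl2os, Foxn1, Foxn4, Foxp3, Foxq1 and Foxs1. They include factors of other lineages, such as Foxp3 of regulatory T cells, Foxn1 of the thymus and Foxj1 of ciliated cells. Their means lay between 4.34 and 5.79, where a value of 4 stands for an intensity of 0. Of the 20, 8 were below the limit on all 12 arrays and 12 exceeded it on at least 1 array, up to 8.15 for Foxp3. Foxp3 exceeded it only on the arrays numbered 1, which stood apart in their controls. It read 8.15 there with empty vector, 7.91 with FoxD3 and 7.23 with FoxD3-VP16, and the number took 87.7% of its variance. The log2 changes of the 20 dim genes spanned -0.77 to 1.18 with FoxD3 and -1.08 to 0.95 with FoxD3-VP16, each against empty vector.

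When all 45037 probe sets were fitted, so that dim ones entered too, 0 of the 79 forkhead probe sets were called with FoxD3 against empty vector, where limma called 0.957% of all probe sets. With FoxD3-VP16 against empty vector 0 were called, where 0.118% of all were. At an unadjusted p under 0.05 there were 14 in each of these comparisons, with no share of all probe sets at that threshold to set beside them. Between FoxD3-VP16 and FoxD3, 7 were called, 4 of Foxp1 and 3 of Foxp2, where 2.66% of all were. With the block 10, 8 and 17 forkhead probe sets were called in the 3 comparisons, where 5.97%, 2.53% and 10.8% of all were. None of the 35 dim forkhead probe sets was among them, with a lowest adjusted p of 0.418, 0.673 and 0.274 without the block and 0.141, 0.268 and 0.142 with it.

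Markers of cell types were read on the same arrays. All 7 melanocyte markers were above the brightness limit, and their summed intensity was 157300 to 167300 with FoxD3, 160000 to 176600 with FoxD3-VP16 and 174800 to 194300 with empty vector. Among them Mitf fell (-1.09, adjusted p = 0.00483) and Sox10 rose (0.73, adjusted p = 0.00287) with FoxD3 against empty vector, and Sox10 fell with FoxD3-VP16 (-0.72, adjusted p = 0.0178). With FoxD3-VP16 against FoxD3, Tyr (0.89, adjusted p = 0.036) and Mitf (0.66, adjusted p = 0.0389) were higher and Sox10 was lower (-1.45). Of 7 fibroblast markers 3 passed the limit, and the sum was 445.1 to 691.3 with FoxD3, 391.3 to 632 with FoxD3-VP16 and 236.7 to 425.4 with empty vector, with Col3a1, Lum, Dcn and Thy1 dim. With FoxD3 against empty vector Col1a1 was higher (2.68, adjusted p = 0.0102), while Pdgfra gave 1.21 (adjusted p = 0.0672) and Col1a2 -0.72 (adjusted p = 0.448). Leukocyte markers (1 of 5 above the limit, with Ptprc and Cd3e dim), endothelial markers (1 of 5, with Pecam1 and Cdh5 dim) and keratinocyte markers (0 of 5) had sums of at most 309.4 on any array. The part of the melanocyte and fibroblast sums in the forkhead differences was not tested.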

How the data were processed

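RNA was measured on 12 one-colour arrays, 4 per group, with groups and replicate numbers taken from the sample titles. The deposited values are linear intensities of 45101 probe sets per array. They were made with MAS5, per the submitters' processing notes, with no version stated there, and the labels name dChip as the authors' analysis program. The mean without the lowest and highest 2% was 500.003 to 500.004 on every array, so arrays share a scale, but medians of log2(intensity + 16) spanned 0.79. After 64 control probe sets were removed, log2(intensity + 16) was quantile normalized. This scale understates the change of dim genes. Each gene is read by its probe set with the highest mean. Gene symbols are those of GEO's platform annotation, in which 34945 probe sets have 1 symbol, 932 several and 9160 are unlisted; the last 2 kinds entered no gene test, among them 1 forkhead probe set. The lowest 40% of genes were left out.

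The 3 comparisons were fitted with limma 3.58.1 in R 4.3.3 (lmFit, eBayes with intensity trend, 9 residual and 3.98 prior degrees of freedom) over all 12 arrays, with Benjamini-Hochberg adjustment over 10916 genes, and again over all probe sets. Folds and intervals are on the log2(intensity + 16) scale. Deviations from group means correlated at 0.37 to 0.67 for all 12 pairs of arrays with the same replicate number. For the 6 pairs of a 3 with a 4 the range was 0.37 to 0.54, and for the remaining 30 pairs between groups -0.51 to 0.12, so the numbers were taken to pair the arrays. The correlations do not tell numbers 3 and 4 apart, and the labels do not say what arrays of equal number share. The blocked fit had 6 residual and 7.3 prior degrees of freedom. Calculations were tested on simulated data.

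Members, lists (FoxO control, FoxO targets, forkhead cofactors, cell type markers), tests and alternatives were chosen with earlier results of these data known. Named genes were all tested forkhead genes, those with a called probe set, Foxd3, and the called members of the FoxO and cofactor lists, at most the 4 largest rises and falls per comparison. Called melanocyte markers and the tested fibroblast markers were named after their values were seen. Of the forkhead symbols, 37 of 37 matched RefSeq, and 25 have a promoter window. Python 3.11.15 with matplotlib 3.10.9 drew the plots. The number of arrays limits the precision.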

Additional observations from a re-analysis of the deposited data

Results flagged for a closer look

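For 54 groups of 4 arrays, those of the 17 tested forkhead genes and Foxd3, the gap between the highest or lowest array and its nearest neighbour was set against the whole range of the group. In 7 of them it exceeded Dixon's 95% critical value, which chance exceeds in about 1 in 20 groups that are independent of each other. The 54 groups lie on the same arrays and are not independent, and no share over all tested genes is given. The 7 therefore have no background to be read against and show no excess. Among the 7 groups, 4 concern arrays numbered 1, which stood apart in their controls. On FoxD3 array 1, Foxa1 read 9.297 against 8.159 to 8.334 on the other 3 arrays of its group, Foxd2 read 8.404 against 6.77 to 6.9, and Foxj2 read 10.35 against 9.675 to 9.767. On FoxD3-VP16 array 1, Foxd2 read 7.832 against 6.621 to 6.794. Lower than their groups were Foxp4 on FoxD3 array 3, at 7.348 against 7.733 to 7.751, and Foxf1 on empty vector array 2, at 5.042 against 6.216 to 6.43. Foxd3, which is dim, read 5.258 on FoxD3 array 4 against 4.599 to 4.694. Of these genes only Foxj2 is called without the block, between FoxD3-VP16 and FoxD3, and without FoxD3 array 1 its log2 change was -0.44 (adjusted p = 0.0728).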

How the results depend on the processing

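Counts of called forkhead genes are given in the order FoxD3 against empty vector, FoxD3-VP16 against empty vector, and FoxD3-VP16 against FoxD3, where the fits above gave 1, 1 and 4. With the replicate block they were 5, 6 and 9, and equal counts, not in all cases of the same genes, were found with the block without the 3 arrays numbered 1 (with FoxD3 against empty vector, Foxj3 was lost and Foxo1 gained) and with the block on values as deposited. With the block and the mean of all probe sets of a gene they were 2, 4 and 5, with 1619, 740 and 2707 over all tested genes. Array weights gave 8, 8 and 11, where calls over all tested genes were 4193, 3465 and 4455, against 438, 65 and 1045 in the fits above and 2297, 1217 and 3498 with the block. No brightness limit and the mean of all probe sets each gave 0, 0 and 2, the lowest 60% left out gave 0, 0 and 3, and only the 2 groups compared gave 0, 0 and 4. With the lowest 60% left out Foxp2 was not tested, so its calls could not be kept in that setting. Calls over all tested genes were 349, 47 and 862 with no limit and 404, 63 and 918 with the mean. They were 274, 46 and 801 with the lowest 60% left out, and 331, 20 and 1078 with only the 2 groups. A pseudocount of 64 gave 0 for the first, and values as deposited gave 2, with 477 and 476 over all tested genes. Without the 3 arrays numbered 1 the counts were 1, 2 and 6, with 870, 277 and 1815 over all tested genes. With 1 array left out they were 0 to 1, 0 to 1 and 2 to 5, with 2 for the last without FoxD3 3, FoxD3 4, FoxD3-VP16 3 or FoxD3-VP16 4.

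For probe sets, where the counts were 0, 0 and 7, the replicate block gave 10, 8 and 17, the block without arrays numbered 1 gave 9, 10 and 20, and the block on values as deposited gave 10, 9 and 19. Array weights gave 10, 9 and 22, arrays numbered 1 left out gave 0, 1 and 15, and no intensity trend gave 4 for the last. With 1 array left out they were 0, 0 and 3 to 9, with 3 without FoxD3-VP16 3 and 4 without FoxD3-VP16 4.

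The change of Foxj2 between FoxD3-VP16 and FoxD3 reversed to 0.15 with the mean of its probe sets (adjusted p = 0.833, and 0.688 with the block), since its other probe set has a change of 0.90. The causes of the other shifts were not tested. Of 1350 values of single genes under an alternative, 1222 kept their side of the threshold and, where called, their direction, 46 lost their call, 80 gained one and 2 reversed. The 1222 include genes not called in the fits above, and 61 of them were uncalled values that changed sign. Against empty vector, the fall of Foxp2 with FoxD3 was called in 12 of 26 alternatives, and its rise with FoxD3-VP16 in 13 of 26. Between FoxD3-VP16 and FoxD3, Foxj2 was called lower in 15 of 27 and Foxk1 in 18 of 27. The difference of Foxp2 and of Foxp1 between FoxD3-VP16 and FoxD3 was called under every alternative that tested them, 26 for Foxp2, which lies below the stricter brightness limit, and 27 for Foxp1, at adjusted p values of at most 0.00108 and 0.0289. Signal near background limits the 20 dim genes, and alternatives with the block on other settings were added after the data had been seen.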
